A study of Mus musculus with 4 samples.

Results

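Expression of 9 genes of the motor axon and its terminal was followed in RNA of mouse skeletal muscle: Snap25, Stx1a, Vamp2, Syt1, Uchl1, Stmn2, Tubb3, Nefl and Gap43. They were found by symbol, as every probe set (the group of short DNA probes that reports 1 transcript on an array) whose only annotated gene was one of them. This gave 13 probe sets of the 12422 on the array that are not controls. Stmn2 has 3 of them, Vamp2 and Tubb3 have 2 each, and the other genes have 1.

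The series, named for the neuromuscular junction, holds 4 arrays of total RNA from murine skeletal muscle. Titles code 2 arrays as J (replicates 1a and 1c) and 2 as NJ (replicates 1a and 1d), and all 4 share the code Ctr and a time of 0 h. The sources used here do not give what J, NJ and Ctr stand for, the strain, the age, any treatment or whether the arrays stand for different animals, and their spread may be technical. The question the design sets is which transcripts differ on the J arrays, against NJ.

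A motor neuron's cell body and nucleus lie outside the muscle, in the spinal cord or brainstem. Inside the muscle the neuron is present as axons and terminals, which keep proteins made in the cell body and a smaller pool of transported transcripts. At many synapses, the SNARE proteins SNAP-25, syntaxin-1 and synaptobrevin-2 pull synaptic vesicles onto the membrane, and synaptotagmin-1 senses the calcium that triggers release. In motor terminals the related sensor synaptotagmin-2 is prominent. Neurofilament light chain, the neuronal tubulin TUBB3, stathmin-2, GAP-43 and the ubiquitin hydrolase UCHL1 belong to the axon and are used as marks of neurons or of growing nerve fibres. Several of these transcripts also occur outside neurons, so their signal in muscle RNA does not by itself name its source.

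None of the 13 probe sets separated J from NJ. Every one had overlapping values between the groups, both in the deposited signal and after normalisation, while on normalised values 26.4% of all tested probe sets had no overlap. On the normalised log2(signal + 32) scale the widest spreads belonged to Snap25, which was bright on 1 J array and dim on the other 3 arrays, and to Uchl1, which was brightest on J 1a and dimmest on NJ 1d. In deposited signal the widest ratio of highest to lowest array was that of Stmn2 95670_at, at 25.9, against 23.4 for Snap25 and 21.4 for Uchl1. The brightest probe sets of Vamp2, Stmn2 and Tubb3 gave nearly equal signals on all 4 arrays.

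The tissue label was checked against muscle genes. Of 18 measured genes of the muscle fibre, 16 lay above the array median on all 4 arrays. Their summed signal was 1429400 and 303010 on J 1a and J 1c, against 1191900 and 882010 on NJ 1a and NJ 1d, so J 1c stood apart with the lowest sum. Over tested probe sets J 1a correlated with the other arrays at 0.761 to 0.776 (Pearson's r), while the highest pair was J 1c with NJ 1d at 0.906. Both columns titled 1a hold unrounded values in the deposited table while J 1c and NJ 1d hold 1 decimal, so differences are also given within each number format, J 1a minus NJ 1a and J 1c minus NJ 1d. Unless another scale is named, a difference is J minus NJ in log2(signal + 32) on quantile-normalised values, given with limma's standard error for 2 arrays a group. On this scale the change of a dim transcript is understated.

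Among the 3 SNARE genes of the 9, Snap25 had the largest difference. It encodes SNAP-25, a SNARE of the terminal's plasma membrane. Its probe set 100047_at gave signals of 904 and 48.5 on J 1a and J 1c, against 71.0 and 38.6 on NJ 1a and NJ 1d. Only J 1a was high, and J 1c lay below NJ 1a. On J 1a it stood 1.20 above the array median on the log2(signal + 32) scale, at the 73.8th percentile of that array's probe sets. Relative to the array median it was at −2.05 on J 1c, the 13.7th percentile of that array, and at −1.95 on NJ 1a and −2.14 on NJ 1d.

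The J minus NJ difference of Snap25 was 1.70 ± 1.07, with a 95% interval of −0.71 to 4.11 (limma, adjusted p = 0.999 over all tested probe sets). It was 3.34 for J 1a minus NJ 1a and 0.05 for J 1c minus NJ 1d. Without J 1a it was 0.01. The standard deviation of normalised values was 2.38 within J and 0.06 within NJ, and the difference is smaller than the spread of the J arrays. After these values were seen, probe sets on which 1 array stood alone above the other 3 by over 3 on the normalised log2 scale were counted. J 1a was that array in 4 of the 9317 tested probe sets (0.0429%) and no other array was in any. Snap25 had the widest gap of the 4, at 3.34. The others were Lrp10, Lpar1 and the unnamed 101141_at. Standing alone low was more frequent, with 35 tested probe sets (0.376%) lowest on J 1a by that margin. Probe sets with a low mean were not tested, and Snap25 was tested only because of its J 1a value. These shares therefore do not measure how rare its pattern is.

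**Figure D1:**
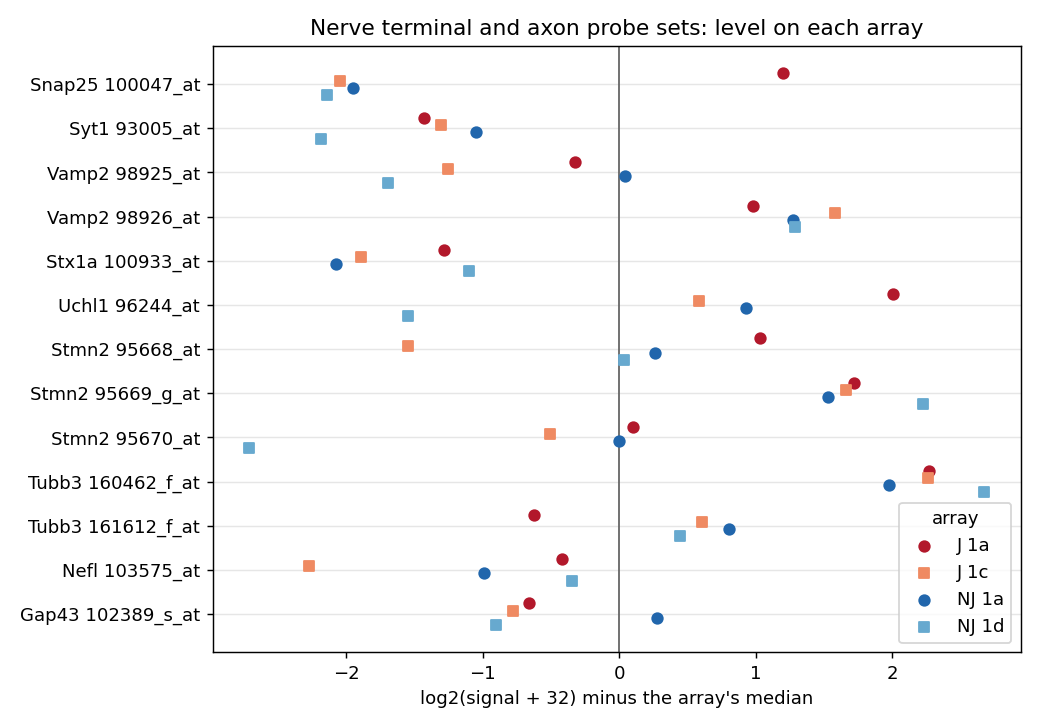
Level of each of the 13 probe sets on each array, as log2(signal + 32) minus that array's median over all probe sets that are not controls; red and orange points are the J arrays, blue points the NJ arrays, and the vertical line is the array median. Snap25 is above the line on J 1a and far below it on the other 3 arrays, while the 4 points of Tubb3 160462_f_at lie between 1.98 and 2.67.

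Vamp2, the vesicle SNARE synaptobrevin-2, varied least over arrays among the 4 release genes followed here, at 1 of its probe sets. Its brighter probe set 98926_at gave 771 and 962 on the J arrays, against 934 and 730 on the NJ arrays. All 4 values lay within a 1.32-fold range, with the groups interleaved. The difference was −0.00074 ± 0.516, and the 95% interval of −1.16 to 1.16 includes more than a doubling in either direction. The range over arrays was narrower than for all but 4.31% of probe sets on the array.

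The other Vamp2 probe set, 98925_at, was less steady. It gave 294 and 107 on the J arrays, against 379 and 64.7 on the NJ arrays. Both 1a arrays were high and both other arrays low, so its values followed the number format and not the J and NJ codes. Its difference was 0.0070 ± 0.877.

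Stx1a, the neuronal syntaxin of the terminal membrane, was too dim to test. Its probe set 100933_at gave 135 and 57.4 on the J arrays, against 62.7 and 114 on the NJ arrays. Relative to the array median those values were −1.28 and −1.89 on the J arrays, against −2.07 and −1.10 on the NJ arrays. The difference of the means was 0.0018, made of 0.79 between the 1a arrays and −0.79 between the other pair.

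Syt1, the calcium sensor of fast release in many central synapses, was also too dim to test. Its probe set 93005_at gave 119 and 103 on the J arrays, against 161 and 36.7 on the NJ arrays, below the array median on every array. The J values fell inside the range of the NJ values. Syt2, the related sensor that is prominent in motor terminals, differed by 0.26 ± 0.73 at its brighter probe set, with signals of 478 and 306 on the J arrays, against 407 and 216 on the NJ arrays. The other Syt2 probe set, 93159_at, went the opposite way by −1.40 ± 0.79 (limma, adjusted p = 0.999), with both J values, 57.4 and 107, below both NJ values, 258 and 244.

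Among the axonal genes, Uchl1 had the largest difference and the widest spread. Its probe set 96244_at gave 1604 and 467 on the J arrays, against 726 and 74.9 on the NJ arrays. The highest value was in J and the lowest in NJ, but J 1c lay below NJ 1a, so the groups overlap. The level was 2.01 and 0.59 above the array median on the J arrays, against 0.93 above it on NJ 1a and a level of −1.55 on NJ 1d. The range over arrays was wider than for 99.1% of probe sets, as was that of Snap25 for 98.6%.

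The difference of Uchl1 was 1.60 ± 0.94, with a 95% interval of −0.51 to 3.71 (limma, adjusted p = 0.999). It was positive in both array pairs, 1.15 for J 1a minus NJ 1a and 2.04 for J 1c minus NJ 1d. It was 0.34 without NJ 1d, and was 2.86 without NJ 1a. The standard deviation was 1.16 within J and 1.79 within NJ, so the difference does not exceed the spread of the NJ arrays. Of all tested probe sets, 3.21% had a difference at least as large in either direction, and 2.45% had one at least as large as that of Snap25. Since Snap25 was tested only because of its J 1a value, the 2.45% does not measure how rare its difference is.

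Stmn2, the microtubule-binding stathmin of axons, was read by 3 probe sets that disagreed. The brightest, 95669_g_at, gave 1310 and 1021 on the J arrays, against 1121 and 1432 on the NJ arrays, with the J values between or below the NJ values and a difference of −0.16 ± 0.46. The probe set 95668_at gave 802 and 81.5 on the J arrays, against 446 and 287 on the NJ arrays. Both the highest and the lowest of its values were J arrays, and its difference was −0.35 ± 0.96.

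The remaining Stmn2 probe set, 95670_at, gave 406 and 202 on the J arrays, against 366 and 15.7 on the NJ arrays. Only NJ 1d was far from the rest. Its difference was 1.16 ± 0.99 (limma, adjusted p = 0.999), of which the 1a arrays gave 0.11 and the other pair 2.20, and without NJ 1d it was −0.18. No statement on Stmn2 as a gene follows from these probe sets, since their differences had opposite signs.

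Tubb3, the tubulin beta chain that marks neurons, varied least over arrays among the 5 axonal genes at its brighter probe set. The probe set 160462_f_at gave 1937 and 1565 on the J arrays, against 1537 and 1959 on the NJ arrays, a 1.28-fold range with the groups interleaved. It lay above the array median by 2.27 and 2.26 in J, and by 1.98 and 2.67 in NJ, and its difference was −0.01 ± 0.41 with a 95% interval of −0.94 to 0.92. The second probe set, 161612_f_at, gave 232 and 473 on the J arrays, against 664 and 394 on the NJ arrays, with a difference of −0.70 ± 0.75. Here J 1a was the low array. Names ending in _f_at mark probes that may match related family members, and whether other tubulins contribute to these signals was not tested.

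Nefl, the neurofilament light chain that sets axon calibre together with its partners, gave 273 and 36.7 on the J arrays, against 168 and 213 on the NJ arrays, at 103575_at. In deposited signal the J arrays were the highest and the lowest of the 4, and all values lay below their array's median. The difference was −0.67 ± 0.87 (limma, adjusted p = 0.999), with 0.58 for J 1a minus NJ 1a and −1.92 for J 1c minus NJ 1d. Other intermediate filament genes of axons differed in their array orders. As with Nefl, J 1a was highest and J 1c lowest in deposited signal for Nefh, Prph and the other Prph probe set. Nefh gave 717 and 113 on the J arrays, against 300 and 383 on the NJ arrays, and Prph, at 161482_f_at, 823 and 48.6 on the J arrays, against 78.1 and 145 on the NJ arrays. Prph 104751_at was too dim to test, with 197 and 11.0 on the J arrays, against 47.4 and 14.4 on the NJ arrays. Nefm, also too dim to test, was lowest on NJ 1d, with 91.3 and 20.9 on the J arrays, against 48.6 and 19.3 on the NJ arrays. Ina, at both of its dim and untested probe sets, had both J values below both NJ values, with 34.6 and 18.5 on the J arrays, against 181 and 50.7 on the NJ arrays, at 94334_f_at. These genes were singled out after their values were seen.

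After normalisation J 1c was the lowest array for Nefl, Stmn2 95668_at, Stmn2 95669_g_at and Tubb3 160462_f_at. In deposited signal Tubb3 160462_f_at was lowest on NJ 1a, at 1537 against 1565 on J 1c. J 1c was also the lowest, after normalisation, for 13 of 26 probe sets of muscle fibre genes (50%) and 19 of 48 of other axon genes (39.6%), against 22% of all probe sets. The highest deposited signal on J 1c was 41086, against 231940 on J 1a, 184180 on NJ 1a and 125530 on NJ 1d. What part these traits of J 1c have in the values of the 3 genes was not tested.

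Gap43, the growth-associated protein of extending axons, gave 226 and 162 on the J arrays, against 451 and 135 on the NJ arrays, at 102389_s_at. NJ 1a was the only array above the array median, by 0.28. The J values were close to each other, with a standard deviation of 0.04 against 0.85 in NJ, and both lay between the NJ values. The difference was −0.44 ± 0.81, with a 95% interval of −2.26 to 1.38.

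**Figure D2:**
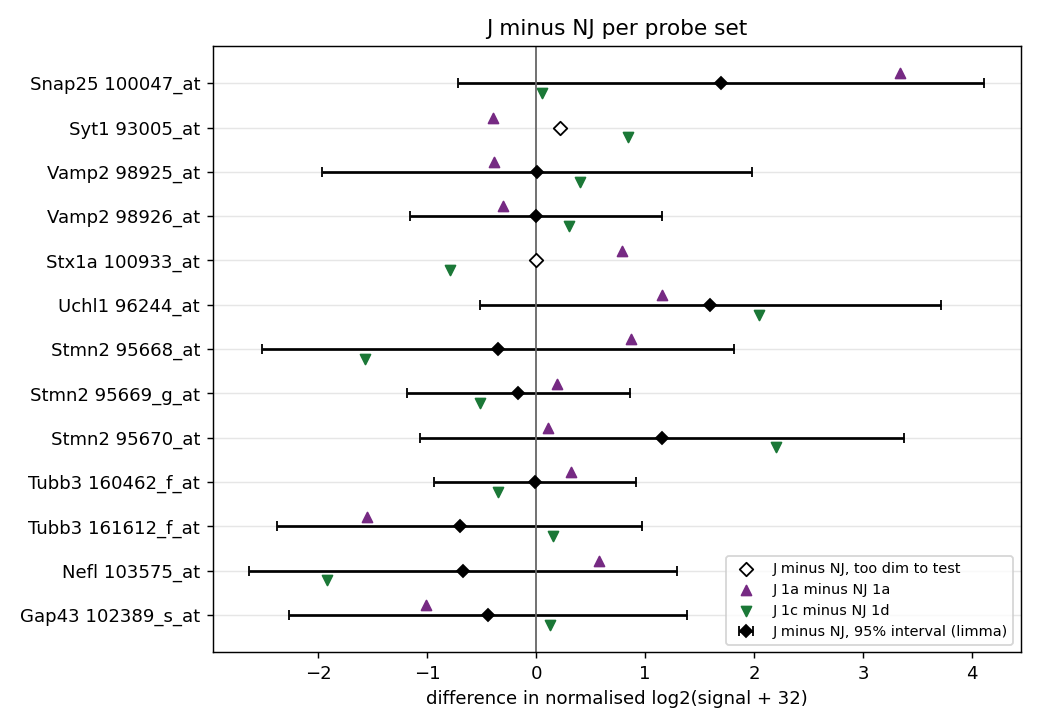
J minus NJ in normalised log2(signal + 32) for each probe set, with the 95% interval of the limma fit where the probe set was bright enough to test (filled diamonds; open diamonds were not tested), and the difference within each number format (triangles). All 11 intervals include 0, and the triangles of Snap25 lie at 3.34 and 0.05.

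Of the 13 probe sets 11, from 7 of the 9 genes, passed the filter on dim probe sets, and 0 of these 11 were called (limma, adjusted p under 0.05 over all tested probe sets). The share called among all 9317 tested probe sets was 0% as well. At an unadjusted p under 0.05 limma gave 0 of 11, against 2.14% of all tested. Of the 11, 4 had a positive and 7 a negative difference, and their median was −0.01, equal to the −0.01 of all tested probe sets at 2 decimals. Both J values exceeded both NJ values for 0 of the 11, against 13.6% of all tested, and below them for 0, against 12.8%. Standard errors ran from 0.41 to 1.07, and with 2 arrays a group the smallest two-sided p of an exact permutation test is 0.333.

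The sign of the difference was compared between the array pairs. Of the 11 tested probe sets, 3 had the same sign in both pairs (27.3%), against 49.3% of all tested probe sets. The 3 were Snap25, Uchl1 and Stmn2 95670_at, each positive in both. For Snap25, J 1c minus NJ 1d was only 0.05, between dim signals of 48.5 and 38.6. Several of the 11 share a gene and all share the 4 arrays, so this count is a description and no trait of the genes is read from it. Across all tested probe sets, which are not independent, the differences of the pairs correlated at r = 0.0016. With a term for the number format in the limma fit, Uchl1 had an unadjusted p of 0.024 and Snap25 of 0.035, a threshold that 5.96% of all tested probe sets passed. Snap25 was tested only because J 1a, at 9.83, lifted its mean over the filter of 7.22, while its other arrays lay between 6.41 and 6.50, so nothing is read from how many of the 11 passed. Neither passed after adjustment (limma, adjusted p = 0.706 and 0.780), while 8 probe sets of the whole array did (0.0859%). With 1 residual degree of freedom, the p-values of that fit rest mostly on the variance trend.

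**Figure D3:**
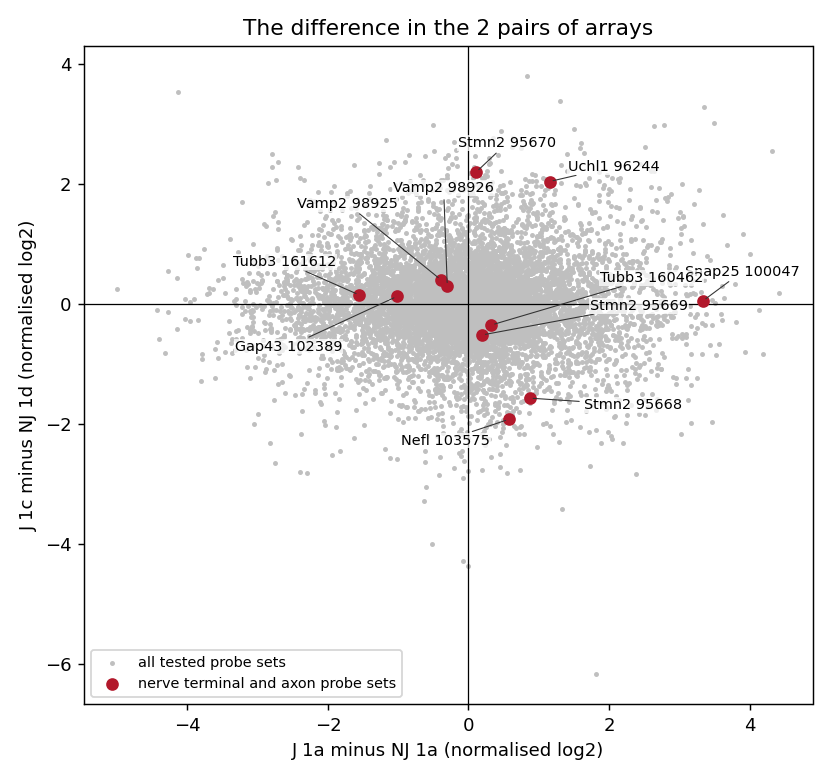
Each tested probe set's J 1a minus NJ 1a (x axis) against its J 1c minus NJ 1d (y axis), both in normalised log2 units; grey points are all 9317 tested probe sets and red points the 11 of nerve terminal and axon genes. Uchl1 is far from 0 on both axes and Snap25 on the x axis alone.

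J 1a was the highest array for 5 of the 11 tested probe sets (45.5%), against 30.7% of all tested ones, after normalisation. NJ 1d was the lowest for 5 of 11 (45.5%), against 21.5% of all tested. These counts are descriptions, since Snap25 is in both and was tested only through J 1a, and since several probe sets share a gene and all share the 4 arrays.

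The genes with the nearest pattern over the 4 arrays were taken for each member whose brightest tested probe set spanned over 2 on the normalised log2 scale, which were Uchl1 and Snap25. Likeness was the root mean square difference of values centred on each probe set's own mean. For Uchl1 the nearest were Notch1 at 0.189, Celf4 at 0.236 and Mynn at 0.236. Notch1 gave 771 and 285 on the J arrays, against 429 and 36.8 on the NJ arrays. For Snap25 they were Klf2 at 0.197, Lpar1 at 0.199 and Gga1 at 0.221, with Klf2 at 768 and 58.5 on the J arrays, against 66.9 and 52.3 on the NJ arrays. These are the closest of all tested probe sets over only 4 values each, and no background likeness was computed. Shared regulation is therefore not read from them.

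On a list of other vesicle release genes, none was called either. Of 40 symbols listed, 25 had a probe set and 19 passed the filter, with 10 higher and 9 lower in J, a median of 0.01 and 0 called by limma. Both J values exceeded both NJ values for 3 of the 19 and lay below them for 1, against 13.6% and 12.8% of all tested probe sets. The members with the smallest p were Napa, Syngr1, Sncb and Bsn (limma, adjusted p = 0.999 for each). Napa, an adaptor that helps take SNARE complexes apart, differed by −0.81 ± 0.57. Syngr1, the vesicle membrane protein synaptogyrin, gave 1193 and 2057 on the J arrays, against 2627 and 2052 on the NJ arrays, a difference of −0.61 ± 0.44. Sncb, the synuclein beta, differed by −1.09 ± 0.80.

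Bsn, the active zone scaffold bassoon, gave 607 and 111 on the J arrays, against 105 and 90.9 on the NJ arrays. As with Snap25, only J 1a was high, and its difference of 1.20 ± 0.88 was made of 2.28 between the 1a arrays and 0.12 between the others. Pclo, the related scaffold piccolo, and Syp, the vesicle protein synaptophysin, were too dim to test. Syp gave 164 and 121 on the J arrays, against 86.6 and 23.6 on the NJ arrays.

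Of the genes that make a terminal cholinergic, 1 of 4 listed had a probe set named here. Slc18a3, the transporter that loads acetylcholine into vesicles, gave 63.3 and 73.1 on the J arrays, against 113 and 30.1 on the NJ arrays. It lay below the array median on every array and was not tested. Chat and Slc5a7 were not analysed here. In bulk RNA such as this, fewer nerve terminals and less of a transcript in each cannot be told apart.

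Other genes of the axon's cytoskeleton and growth gave no call either. Of 46 symbols listed, 35 had a probe set and 26 were tested, with 10 higher and 16 lower in J, a median of −0.13 and 0 called by limma. Dpysl3, a growth cone protein of the collapsin response family, differed by −1.45 ± 0.80, with signals of 56.8 and 120 on the J arrays, against 356 and 202 on the NJ arrays. Tuba1a, a tubulin alpha chain, gave 5549 and 4720 on the J arrays, against 8789 and 8281 on the NJ arrays, a difference of −0.63 ± 0.36 at its brightest probe set and −0.08 at the other. Cntn1, the axonal adhesion protein contactin-1, differed by −0.82 ± 0.77 and Spock1, a secreted proteoglycan, by −0.90 ± 0.86 (limma, adjusted p = 0.999 for all 4). Ndrg4, of the NDRG family, stood in this list at its brighter probe set with 0.40 ± 0.58, but its other probe set, 160819_at, had the most negative difference of all tested probe sets, −2.70 ± 0.76 (limma, unadjusted p = 0.0056, adjusted p = 0.999). That probe set gave 157 and 73.9 on the J arrays, against 1068 and 640 on the NJ arrays, with −2.75 for J 1a minus NJ 1a and −2.64 for J 1c minus NJ 1d. In the other direction, Basp1 of the same list differed by 1.48 ± 0.75 at 95673_s_at (limma, adjusted p = 0.999). That probe set gave 2340 and 500 on the J arrays, against 381 and 393 on the NJ arrays. The brightest Basp1 probe set differed by 0.32 ± 0.36. Ndrg4 160819_at and Basp1 95673_s_at were singled out after their values were seen.

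**Figure D4:**
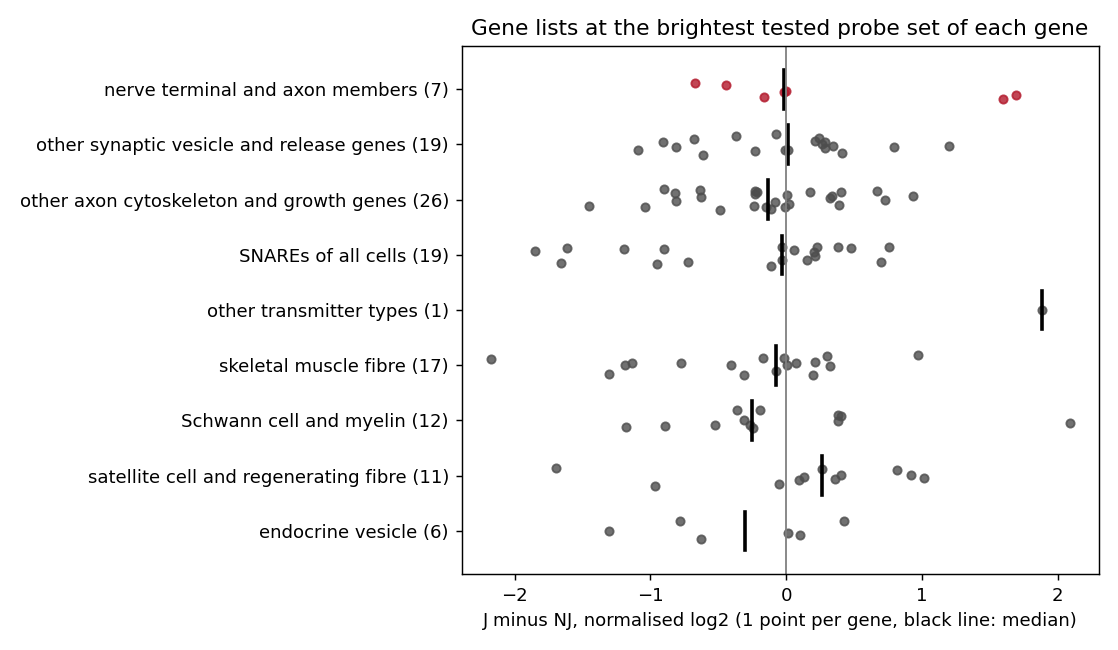
J minus NJ in normalised log2 units at the brightest tested probe set of each gene, by gene list; each point is 1 gene, the black line is the list's median and the number of genes is in brackets. The medians of the nerve terminal, release and SNARE lists lie between −0.03 and 0.01.

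Markers of the cells that wrap motor axons were measured beside the axonal genes. All 12 Schwann cell and myelin genes with a probe set were tested, with 4 higher and 8 lower in J, a median of −0.25 and 0 called. Their summed signal was 11035 and 13031 on the J arrays, against 11362 and 10883 on the NJ arrays, and none of the listed values was 0. Cryab alone made 4650 and 6650 of the sums on J 1a and J 1c, and 3174 and 6629 on NJ 1a and NJ 1d. The sums therefore do not give the level of Schwann cells. Apod, a lipid carrier of Schwann cells and fibroblasts, differed by 2.09 ± 0.84, with 728 and 462 on the J arrays, against 240 and 39.6 on the NJ arrays. S100b, a calcium-binding protein of Schwann cells, gave 72.1 and 153 on the J arrays, against 351 and 197 on the NJ arrays, a difference of −1.18 ± 0.81. Gfap, an intermediate filament of glia, differed by −0.89 ± 0.93 and Cryab, a small chaperone also abundant in muscle, by 0.38 ± 0.41 (limma, adjusted p = 0.999 for all 4). The other probe set of each, too dim to test, had the opposite sign, 0.94 for Gfap and −1.25 for Cryab.

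Genes of satellite cells and regenerating fibres were 8 higher and 3 lower in J of 11 tested, with a median of 0.26 and 0 called. Their summed signal over all 13 genes with a probe set was 8610 and 8797 on the J arrays, against 6668 and 7193 on the NJ arrays. A large part of these sums was Itga7, with 1760 and 3078 on the J arrays, against 1689 and 1682 on the NJ arrays. That probe set differed by 0.41 ± 0.42, while the other tested Itga7 probe set, 93061_at, went the opposite way by −0.32 ± 0.45. Myod1, with 1933 and 1533 on the J arrays, against 1232 and 1376 on the NJ arrays, was another large part. It differed by 0.36 ± 0.43. Both J values exceeded both NJ values for 5 of the 11 genes and lay below them for 2. Of all tested probe sets, 13.6% and 12.8% did so. No list test was run on these counts. Myog, the transcription factor myogenin, gave 509 and 856 on the J arrays, against 379 and 214 on the NJ arrays, a difference of 1.02 ± 0.71. Chrng, the fetal acetylcholine receptor subunit, differed by 0.92 ± 0.70, Cdh15, the cadherin of satellite cells, by −1.69 ± 0.78 and Sdc3 by −0.97 ± 0.82 (limma, adjusted p = 0.999 for all 4). The other tested probe set gave −0.40 ± 0.91 for Chrng, with the opposite sign, and −0.70 ± 0.99 for Cdh15. What part these cells have in the Uchl1 signal was not tested.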

How the data were processed

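The authors deposited a linear intensity for each probe set on each array, made with software that the sources used here do not name. The deposited columns share a trimmed mean (2% at each end) of 800.5 to 800.6, which shows scaling to a common level. Column medians were 376 and 300 on the J arrays, against 366 and 280 on the NJ arrays. Symbols came from the platform's gene table, where 10833 probe sets had 1 symbol, 396 several and 1193 none here; 10817 single symbols were found in RefSeq's GRCm38.p6 table and 0 changed. Values were taken as log2(signal + 32). Column medians on that scale differed by over 0.1, so arrays were quantile normalised, with the 66 controls included. Probe sets with a mean above the 25th percentile (9317, controls left out) were tested with limma 3.58.1 in R 4.3.3 (intensity trend, 2 residual degrees of freedom), adjusted by Benjamini-Hochberg over all of them, at a threshold of 0.05. Levels against the array median use deposited signals without normalisation. Precision is given by standard errors and intervals between arrays, and is limited by there being 2 a group. The code was tested on simulated data.

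The genes and lists were chosen with earlier results of these data known, so no list test was run. Lists stand at the brightest tested probe set of each gene, and the 4 genes with the smallest unadjusted p are named from each. They cover release genes, cholinergic genes, axon genes, SNAREs of all cells, muscle fibres, Schwann cells, satellite cells, endocrine vesicles and other transmitter types. Alternatives were the deposited scale, median centring, pseudocounts of 1 and 100, leaving out the filter or raising it to the median, no trend, each array left out and a number-format term. Figures were drawn with matplotlib 3.10.9.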

Additional observations from a re-analysis of the deposited data

How the results depend on the processing

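Under all 12 alternatives 0 of the tested nerve terminal and axon probe sets were called (limma), and 113 of their 128 values kept direction and side of the threshold. Over the whole array the count of calls was 8 with the number-format term and 0 under the other 11. Changing the filter, leaving out the trend and adding the number-format term cannot alter a probe set's difference, so values under these could not reverse. All 15 reversals among the 128 values came from the other alternatives. The median of the tested nerve terminal and axon probe sets, −0.012, was −0.056 with median centring, −0.089 with a pseudocount of 1 and −0.087 with the filter at the median. It ran from −0.20 to 0.24 with each array left out. Vamp2 98926_at turned to 0.058 and Tubb3 160462_f_at to 0.0050 on the deposited scale, and Vamp2 98925_at to −0.027 with a pseudocount of 100; the cause was not tested. With each array left out, Vamp2 98925_at ran from −0.84 to 0.85, Vamp2 98926_at from −0.18 to 0.18, Stmn2 95668_at from −1.70 to 1.0, Stmn2 95669_g_at from −0.35 to 0.022, Stmn2 95670_at from −0.18 to 2.49, Tubb3 160462_f_at from −0.20 to 0.17, Nefl from −1.57 to 0.24 and Gap43 from −1.04 to 0.16. Snap25 ran from 0.01 to 3.38 and Uchl1 from 0.34 to 2.86, always positive. Tubb3 161612_f_at ran from −1.30 to −0.095, always negative. No paired analysis was possible by replicate label because only 1a occurs in both groups; the number-format term blocks J 1a with NJ 1a and J 1c with NJ 1d by how the columns are written. Snap25 fell under the filter, and has no value, with a pseudocount of 1 and with the filter at the median. Dim signal limits Syt1, Stx1a and Slc18a3, which were not tested in the main fit. With the filter left out, Syt1 and Stx1a were tested and not called (limma, adjusted p = 0.9996 for each).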

Other observations

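SNARE genes that serve membrane traffic in all cells were set beside those of the terminal. Of 29 symbols 22 had a probe set and 19 were tested, with 9 higher and 10 lower in J, a median of −0.03 and 0 called. The members with the smallest p were Gosr1, Stx6, Gosr2 and Vamp4, SNAREs of the Golgi and its vesicles (limma, adjusted p = 0.999 for each). Vamp4 gave 89.4 and 1013 on the J arrays, against 981 and 1316 on the NJ arrays, and Gosr2 gave 182 and 1434 on the J arrays, against 1753 and 1267 on the NJ arrays. In both, J 1a alone was low, and their differences were −1.85 ± 0.97 and −1.61 ± 0.85. The other tested probe set of Vamp4, 93191_at, gave 424 and 850 on the J arrays, against 401 and 821 on the NJ arrays, a difference of 0.01. For Gosr2, 94072_g_at differed by −0.20 ± 0.53 and 99986_at by −1.35 ± 0.96, and 94070_at, too dim to test, by 0.54. Stx6 differed by −1.66 ± 0.85 and Gosr1 by −1.19 ± 0.57, each with both J values below both NJ values. After normalisation J 1a was the lowest array for 13 of the 32 probe sets of this list (40.6%), against 29.7% of all probe sets.

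Th, tyrosine hydroxylase of the catecholamine pathway and a mark of the sympathetic fibres that run with blood vessels, was the 1 tested gene among those of other transmitter types. It gave 717 and 294 on the J arrays, against 88.3 and 117 on the NJ arrays, so each J value exceeded each NJ value. The same held for 13.6% of all tested probe sets. Its difference was 1.88 ± 0.81 (limma, adjusted p = 0.999), with 2.74 for J 1a minus NJ 1a and 1.03 for J 1c minus NJ 1d. Gad1, Gad2 and Slc32a1, genes of GABA synthesis and loading, were too dim to test on these arrays.

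Genes of endocrine dense-core vesicles, 3 higher and 3 lower in J of 6 tested with 0 called, had a median of −0.31. Chgb, a granin of these vesicles, gave 93.7 and 227 on the J arrays, against 374 and 427 on the NJ arrays, a difference of −1.30 ± 0.83. Pcsk1, a prohormone convertase, differed by −0.78 ± 0.83, Scg5 by −0.63 ± 0.88 and Scg3 by 0.43 ± 0.79 (limma, adjusted p = 0.999 for all 4).

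Of the muscle fibre genes, 7 were higher and 10 lower in J of 17 tested, with a median of −0.07 and 0 called. Pygm, the muscle glycogen phosphorylase, differed by 0.97 ± 0.40, and both its J values, 27517 and 19192, lay above its NJ values of 15941 and 12576. Actn3, the actinin of fast fibres, differed by −1.18 ± 0.69, Atp2a1, the calcium pump of fast fibres, by −1.31 ± 0.80 at its brightest probe set and 1.23 at another, and Myh4, a fast myosin heavy chain, by −1.13 ± 0.72 (limma, adjusted p = 0.999 for all 4). In these 3, at their brightest probe sets, the low value was that of J 1c. The other tested probe set gave −0.42 ± 0.55 for Actn3 and 0.27 ± 0.70 for Myh4.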
